A study of Homo sapiens with 6 samples.

Results

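Ribosomal protein pseudogenes, the genomic copies of the genes that encode the proteins of the ribosome, were followed in Ago-RIP-seq libraries of MDA-MB-231 cells. They were taken as every gene whose GENCODE 44 biotype contains pseudogene, whose symbol starts with RPL or RPS and whose unstranded counts summed to at least 50 over the 4 mimic libraries. The rule gave 106 pseudogenes of 1604 with such a symbol, among 15196 annotated pseudogenes and 60708 genes in all. Of the remainder, 434 had no count and 1064 had 1 to 49 counts. MDA-MB-231 is a human triple-negative breast cancer line. The cells were transfected at 25 nM with a mimic of miR-99b-5p or with a scrambled oligonucleotide, here called the control, and were harvested 18 hours later. From each lysate AGO2 and its bound RNA were pulled down (AGO2-IP), and the RNA left behind was kept as the flow-through. Each mimic fraction had 2 libraries and each control fraction had 1. All come from 1 cell line with transient transfection, and no library of the IgG pull-down was analysed here. The question asked of the fractions was which RNA is found with AGO2 rather than left behind, and for these pseudogenes whether that ratio differs from the ratio of the gene they were copied from, here called the parent gene.

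AGO2 is the protein that holds a microRNA and pairs it with partly complementary messenger RNA. A processed pseudogene arises when a messenger RNA is copied into DNA and inserted elsewhere in the genome, so it usually lacks introns and a promoter of its own and starts out nearly identical to the mature parent transcript. Ribosomal protein genes are short, highly transcribed genes with terminal oligopyrimidine (TOP) messages, and they have left more such copies in the human genome than most gene families. Reads from a copy and from its parent can then be told apart only where the sequences differ.

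The label of processed copies held for most of the 106. Their biotypes were processed pseudogene in 92, transcribed processed pseudogene in 11, unprocessed pseudogene in 1 and transcribed unprocessed pseudogene in 2. They comprised 74 copies of large subunit (RPL) genes and 32 of small subunit (RPS) genes, traced by symbol to 47 parent genes, and for every one the best protein-coding match by sequence was that parent. A single exon was annotated for 94 of them. By position, 50 lay inside another gene without touching its exons (31 on the opposite strand and 19 on the same strand), 45 lay between genes and 11 shared a base with an exon of another gene. The RPL7A family was the largest with 8 copies, while 20 parent genes had 1 copy each.

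The likeness that limits the counting can be seen in the sequences themselves. Each pair below shows 90 bases of a pseudogene and the matching bases of the coding sequence of its parent, from GENCODE 44 on GRCh38, 5′ to 3′ on the transcribed strand, with the differing bases in capitals. Each window is the one with the most differences among stretches of that length without a gap inside the coding sequence. The pairs were chosen to show a highly counted near-identical copy, a copy low in the AGO2-IP, a copy with similar levels in both fractions and a diverged copy.
RPL13AP5 lies between genes, and its window is chr10:96750471-96750560 on the plus strand.
RPL13AP5: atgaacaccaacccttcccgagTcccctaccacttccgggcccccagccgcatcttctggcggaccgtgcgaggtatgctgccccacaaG
RPL13A: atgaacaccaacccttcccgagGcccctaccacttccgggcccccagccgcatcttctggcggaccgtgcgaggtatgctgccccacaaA
RPL10P16 overlaps an exon of an unnamed gene, and its window is chr19:12643292-12643381 on the minus strand.
RPL10P16: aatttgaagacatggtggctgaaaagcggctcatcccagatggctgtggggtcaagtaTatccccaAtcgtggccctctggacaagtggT
RPL10: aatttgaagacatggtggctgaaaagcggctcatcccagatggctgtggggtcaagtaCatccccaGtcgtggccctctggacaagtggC
RPL3P4 lies between genes, and its window is chr14:98973206-98973295 on the minus strand.
RPL3P4: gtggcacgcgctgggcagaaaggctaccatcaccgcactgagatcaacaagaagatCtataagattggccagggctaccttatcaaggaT
RPL3: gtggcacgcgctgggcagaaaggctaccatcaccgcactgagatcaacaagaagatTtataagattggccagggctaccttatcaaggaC
RPL4P6 overlaps an exon of MRTFA on the same strand, and its window is chr22:40587028-40587117 on the minus strand.
RPL4P6: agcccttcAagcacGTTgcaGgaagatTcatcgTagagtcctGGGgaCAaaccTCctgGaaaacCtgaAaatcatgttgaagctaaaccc
RPL4: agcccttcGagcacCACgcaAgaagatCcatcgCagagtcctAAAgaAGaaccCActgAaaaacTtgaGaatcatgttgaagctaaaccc
The most divergent window held 2 differences in RPL13AP5 and RPL3P4, 3 in RPL10P16 and 17 in RPL4P6. Over the aligned length, RPLP0P6 was 98.8% identical to its parent with 11 mismatches, and RPL4P6 was 81.3% identical with 154 mismatches. Across the 106 pseudogenes the median identity was 97.3%, with a range from 71.5% to 100%.

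The authors counted read pairs that map to 1 place only, so a pair is assigned to a copy only where the copy or its flank differs from every other place. In a window of 150 bases that is identical to the parent, no inner difference exists. Among 105 pseudogenes of at least that length, 61 differed from every transcript of the parent in all such windows and 44 shared some of them. RPL39P3, RPL36AP37, RPS28P7 and RPL21P16 had no distinct window, and RPL41P1 was shorter than 1 window. These 5 were 100% identical to the parent and still held 363, 358, 452, 114 and 355 summed counts over the mimic libraries. How many of the counts on a pseudogene came from parent transcripts was not tested.

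The libraries differed in depth. The mimic libraries held 38022779 to 48544756 gene counts and the control libraries 7772149 and 8076375. Read pairs placed at several positions made up 9.69% and 19.2% of pairs in the mimic flow-through, 2.71% and 2.38% in the mimic AGO2-IP, and 73.7% and 76.7% in the control libraries. Mitochondrial genes took 43.4% of the gene counts of the control flow-through and at most 3.48% elsewhere. Of the markers of the line, VIM, CD44, AXL, CAV1, KRT18 and S100A4 were counted in all libraries, whereas ESR1 and PGR reached at most 0.991 CPM in any library, where CPM is the count scaled to equal library totals, and CDH1 at most 3.96. ERBB2, the receptor gene that is not amplified in triple-negative tumours, was counted at 37.7 to 172 CPM and the luminal gene GATA3 at 8.26 to 24.8 CPM. EPCAM reached 11.8 CPM. Of the markers of other cells, PTPRC and CD3E (leukocytes) and ALB (hepatocytes) reached at most 1.86 CPM. The fibroblast markers COL1A1 and PDGFRB reached 44.1 and 21.7 CPM, and PECAM1 (endothelium) 8.47 CPM. The part of these differences between libraries in the results below was not tested.

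Summed over all 106, the pseudogenes were counted less in the AGO2-IP than in the flow-through, and the parent genes were lower to a similar degree. The mimic flow-through libraries held 15690 and 8487 counts on the pseudogenes, and the mimic AGO2-IP libraries 4370 and 3490. The control flow-through held 1223 and the control AGO2-IP 820. Relative to all gene counts of the library, the pseudogenes took 334 and 175 CPM in the mimic flow-through, 93.5 and 91.8 in the mimic AGO2-IP, 157 in the control flow-through and 102 in the control AGO2-IP. Both AGO2-IP values lay under both flow-through values of the mimic, and the flow-through libraries differed from each other far more than the AGO2-IP libraries did (254 ± 112 against 92.6 ± 1.20, mean ± SD, n = 2 each). The difference was 1.38 lower on the log2 scale in the AGO2-IP (log2 difference -1.38, exact permutation test, two-sided p = 0.333), which is the smallest p that 2 against 2 libraries allow. The 47 parent genes took 3.64% and 1.61% of the gene counts in the mimic flow-through and 0.956% ± 0.0614 (mean ± SD, n = 2) in the mimic AGO2-IP, a log2 difference of -1.34. The 95% Wilson interval of the pseudogene share was 0.0329% to 0.0339% in the first flow-through library and 0.00888% to 0.00949% in the second AGO2-IP library. Intervals cover counting error only. In bulk RNA, fewer copies of a transcript and fewer reads that can be placed on it cannot be told apart.

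The ratio of pseudogene to parent counts was nearly the same in all libraries. For every 1000 counts on the parents, the pseudogenes held 9.18 and 10.9 in the mimic flow-through, 9.35 and 10.1 in the mimic AGO2-IP, 9.94 in the control flow-through and 9.66 in the control AGO2-IP. The mimic fractions overlapped, at 9.70 ± 0.497 for the AGO2-IP, 10.02 ± 1.19 for the flow-through (mean ± SD, n = 2), and the log2 difference of -0.04 had an exact permutation p of 1 (two-sided). The flow-through libraries of the mimic stood farther apart (9.18 and 10.9) than the averages of the fractions did. With stranded counts, the log2 difference was 0.13 from column 3 and 0.11 from column 4. In the control pair, where no test is possible, it was -0.04.

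**Figure D1:**
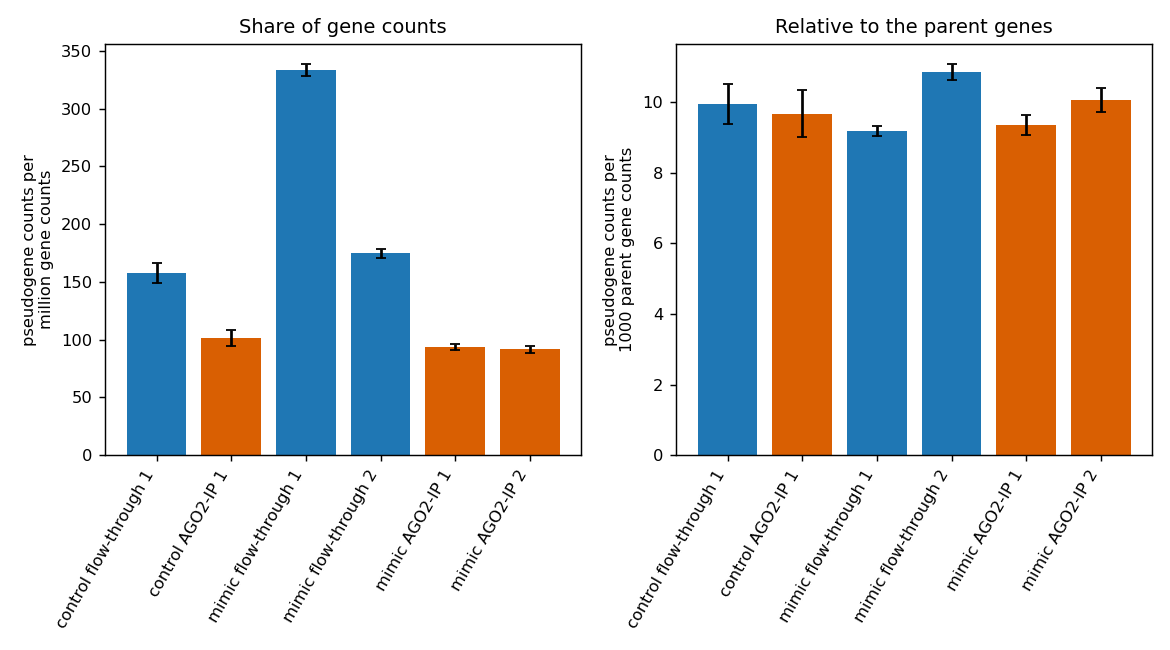
Summed counts of the 106 pseudogenes in each library, as CPM of all gene counts (left) and per 1000 counts on their 47 parent genes (right), with 95% Wilson intervals as error bars, flow-through in blue and AGO2-IP in orange. The share of gene counts runs from 91.8 to 334 CPM, while the ratio to the parents stays between 9.18 and 10.9.

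Gene by gene, 54 of the 106 pseudogenes reached the 200 summed counts required for testing. None was called depleted or enriched by edgeR's quasi-likelihood test when a log2 fold change of 1 or more in either direction and an adjusted p (Benjamini-Hochberg) no higher than 0.05 were asked for, where 0.413% of all 13078 tested genes were called depleted and 0.245% enriched. At an unadjusted p under 0.05, 22 of the 54 were lower in the AGO2-IP and 0 higher, against 1719 lower and 1388 higher of all 13078. The lowest adjusted p was 0.0617, for RPL10P16. The median log2 fold change of the 54 was -1.44, against -0.11 over all tested genes. Of the 54, 49 were below 0, compared with 6936 of all 13078. Because the pseudogenes reach 200 counts mainly through the flow-through, these numbers describe the tested pseudogenes and not the whole list. Of the 106, 87 reached the floor of 50 on flow-through counts alone and 43 on AGO2-IP counts alone. When every gene summing to 50 counts or more was fitted, all 106 were included and 0 were called depleted (0.242% of 16958 genes). The median was -1.41 against -0.17 over all genes. At an unadjusted p under 0.05, 31 were lower and 1 higher, against 1662 lower and 1723 higher of all 16958. In that fit 65 of the 106 had a log2 fold change of -1 or less, compared with 27.8% of all genes.

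The call depended on the model fitted. The replicate number pairs the fractions of the mimic, and with it as a block 18 of 54 pseudogenes were called depleted (5.08% of all tested genes) and 0 enriched (4.6% of all tested genes). These 18 came from 13 parent genes and had log2 fold changes of -4.15 to -2.40. In all of them both AGO2-IP libraries lay under both flow-through libraries, but the calls rest on the same libraries, so this adds no support. The standard errors of RPLP0P6, RPL13AP5 and RPL23AP82 were 0.715, 0.743 and 0.736 without the block and 0.747, 0.767 and 0.734 with it. The unadjusted edgeR p of RPL13AP5 was 0.00546 without the block and 0.000829 with it. Its log2 fold change was -2.55 and -2.56, so the lower p came with neither a clearly larger change nor a smaller standard error. The added calls are therefore not read as a gain in precision. PyDESeq2 without a block called 11 of the 54 depleted, against 8.24% of all genes. It gave no adjusted p for some of the 54, among them RPL10P16, RPL29P4 and RPL7AP45 (log2 fold changes of -4.23, -3.35 and -0.22). Genes without an adjusted p could not be called and stay in both denominators. With the GC trend removed and no block 1 of the 54 was called depleted (2.3% of all genes), with both 21 (12.7%), and with the block over genes with at least 50 counts 20 of the 106 (3.17%). The AGO2-IP libraries lay under both flow-through libraries in 32 of the 54, compared with 28.5% of all tested genes. They lay above both in 1, compared with 28.1% of all tested genes.

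The most counted pseudogene was RPLP0P6, a copy of the gene for the stalk protein P0 of the large subunit, which lies opposite LINC02613 on chromosome 2. It held 950 and 550 counts in the mimic flow-through, 192 and 193 in the mimic AGO2-IP, 54 in the control flow-through and 41 in the control AGO2-IP. After scaling, both AGO2-IP libraries were below both flow-through libraries, with a log2 fold change of -1.76 ± 0.71 (SE, edgeR adjusted p = 0.171). RPLP0 itself had 164232 and 67548 counts in the mimic flow-through, 24962 and 40302 in the mimic AGO2-IP and a log2 fold change of -1.55 ± 0.64 (edgeR adjusted p = 0.174). Per length, the level of RPLP0P6 in the flow-through was 0.768% of that of RPLP0.

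RPL13AP5 was another highly counted near-identical copy. RPL13AP5, a copy of RPL13A on chromosome 10, held 823 and 640 counts in the mimic flow-through, 145 and 85 in the mimic AGO2-IP, 49 in the control flow-through and 35 in the control AGO2-IP. Its log2 fold change was -2.55 ± 0.74 (edgeR adjusted p = 0.0927, or 0.0172 with the replicate block), and that of RPL13A was -2.03 ± 0.61. In this pseudogene both AGO2-IP libraries lay under both flow-through libraries of the mimic.

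RPS2P5 and RPS3AP6 were highly counted small subunit copies. RPS2P5, inside TAOK3 on the opposite strand, held 356 and 389 counts in the mimic flow-through and 44 and 39 in the mimic AGO2-IP, without overlap. Its log2 fold change was -3.05 ± 0.81 (edgeR adjusted p = 0.0818, or 0.0056 with the replicate block), beside -2.46 ± 0.59 for RPS2. RPS3AP6 held 349 and 197 counts in the mimic flow-through and 185 and 76 in the mimic AGO2-IP, and its log2 fold change of -0.94 ± 0.78 stood beside -0.80 ± 0.63 for RPS3A. Both RPS3A and RPS3AP6 were thus nearer to 0 than RPS2 and RPS2P5. This does not hold for the whole family, as RPS3AP6 was the highest of 4 RPS3A copies. In the fit of all 106 these ran from -2.61 to -0.78, beside -2.93 to -2.86 for the 2 RPS2 copies.

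Among the tested pseudogenes with fractions that did not overlap, the lowest ratios belonged to copies of RPL10, RPS15, RPL29 and RPL13A. RPL10P16, a copy of the gene for a large subunit protein that joins the ribosome late in its assembly, held 103 and 114 counts in the mimic flow-through, 7 and 4 in the mimic AGO2-IP, 7 in the control flow-through and 4 in the control AGO2-IP. The AGO2-IP libraries together held 11 of its 228 counts. Its log2 fold change was -4.19 ± 0.95 (edgeR adjusted p = 0.0617, or 0.0010 with the replicate block). RPL10P9, another copy of RPL10, held 136 and 88 counts in the flow-through and 12 and 6 in the AGO2-IP, with a log2 fold change of -3.49 ± 0.91. RPL10 was 1 of 2 parent genes called depleted, at -3.43 ± 0.62 (edgeR adjusted p = 0.0414). RPS15P4, with 106 and 174 flow-through counts and 6 and 13 AGO2-IP counts, had -3.73 ± 0.99 beside -3.40 ± 0.69 for RPS15. In the fit of all 106, the lowest ratio was that of RPS20P14 at -4.40 ± 1.28, with 14 and 41 flow-through counts and 1 AGO2-IP count in each library. RPL29P4 and RPL13AP25 had log2 fold changes of -3.37 ± 1.10 and -3.30 ± 0.88, lower than -2.33 and -2.03 of their parents, but those differences are about the size of the standard errors.

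At the other end stood copies of RPL7 and RPL3, whose parents also had ratios near or above 0. RPL7P9 held 185 and 56 counts in the mimic flow-through and 215 and 128 in the mimic AGO2-IP, and it was the only tested pseudogene with both AGO2-IP libraries above both flow-through libraries after scaling. Its log2 fold change of 0.72 ± 0.81 did not pass the test (edgeR adjusted p = 0.607), and RPL7 had 0.57 ± 0.65. RPL7P1, opposite CSF1R, had 110 and 22 flow-through counts, 131 and 57 AGO2-IP counts and a log2 fold change of 0.73 ± 0.89. RPL3P4 held 137 and 199 counts in the flow-through and 269 and 95 in the AGO2-IP, so its fractions overlapped, and its log2 fold change of 0.13 ± 0.81 lay beside 0.06 ± 0.60 for RPL3. Both RPL3P4 and RPL3 were high in the first AGO2-IP library (78084 counts for RPL3 against 32388 in the second).

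**Figure D2:**
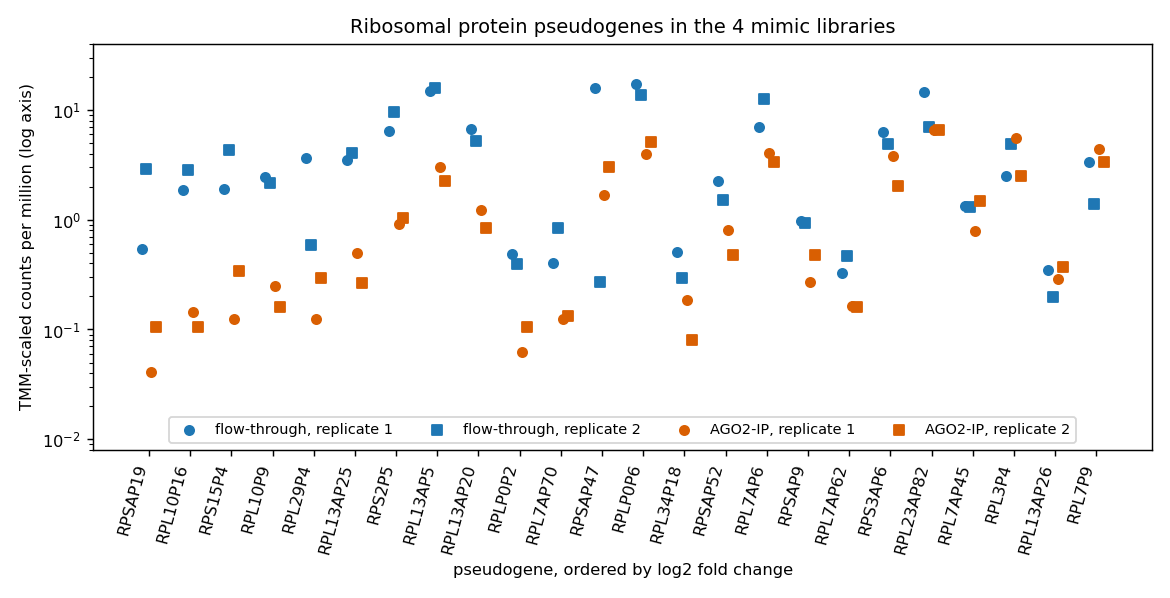
TMM-scaled CPM of 24 named pseudogenes in the 4 mimic libraries on a log axis, ordered by log2 fold change from the fit of genes with at least 50 counts, with flow-through in blue, AGO2-IP in orange and the symbol shape giving the replicate. The AGO2-IP points lie under the flow-through points on the left and mix with them on the right, and RPSAP47 shows flow-through libraries 58.0-fold apart.

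Over all 106, the log2 fold change of a pseudogene followed that of its parent, and more so for close copies. Spearman's rho between the pseudogene and its parent was 0.48 and Pearson's r was 0.49 (n = 106 pseudogenes, which share libraries and, within families, parents). For the 92 with an identity of at least 90%, rho was 0.62, and for the 14 less alike it was 0.11. Of those 92, 68 lay within 1 log2 unit of the parent, compared with 3 of the 14. The identity bounds were chosen with the values known, and the correlations are across genes that are not independent replicates.

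Differences between replicate libraries followed the same pattern. The log2 ratio of the first to the second flow-through library correlated between pseudogene and parent with a rho of 0.56 for the 92 close copies and 0.08 for the 14 others. Between the AGO2-IP libraries the same rho was 0.47 and -0.11. RPL39P3 was 23.2-fold and RPS27P3 9.70-fold higher in the first flow-through library than in the second, and for both the parent genes also stood higher in the first, by 3.44 and 3.67 log2 units. RPSAP47 did not share this: it held 870 counts in the first flow-through library and 11 in the second, a 58.0-fold difference, while RPSA held 60888 and 63647. Its AGO2-IP libraries held 82 and 113 counts, and its log2 fold change of -1.78 ± 1.28 became 3.05 (edgeR adjusted p = 0.0328) when the first flow-through library was left out. That fit has 1 flow-through library, which is assumed to vary like the AGO2-IP libraries. No direction is therefore read for RPSAP47.

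**Figure D3:**
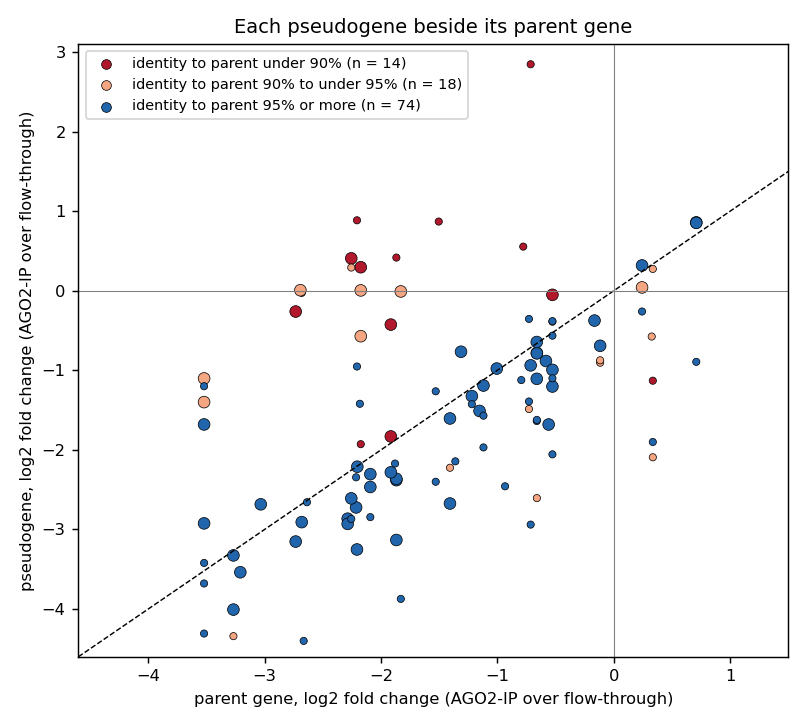
Log2 fold change, AGO2-IP over flow-through, of each of the 106 pseudogenes (vertical) against that of its parent gene (horizontal), both from the fit of genes with at least 50 counts, coloured by identity to the parent, with large points for pseudogenes with at least 200 counts and a dashed line where both are equal. Copies of 95% identity or more gather near the line and mostly just under it, whereas 13 of the 14 copies under 90% lie above it.

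Ratio and likeness went together within the list. Log2 fold change and identity had a Spearman's rho of -0.39 (n = 106). In the fit of all 106, the median log2 fold change was 0.13 for the 14 copies under 90% identity, -0.73 for the 18 from 90% to under 95%, -1.65 for the 28 from 95% to under 98%, -2.09 for the 24 from 98% to under 99% and -1.47 for the 22 at 99% or more. Relative to the parent, the median difference was 2.33 log2 units higher for copies under 90% and 0.13 to 0.46 lower in the other classes (medians of -0.13, -0.46, -0.37 and -0.26). With the share of 150-base windows held by the parent as the measure of likeness, rho was -0.24 (n = 105). Likeness was not independent of position, as 6 of the 11 copies that share an exon base with another gene were under 90% identical.

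The copies of RPL23A, whose protein lies at the exit of the nascent chain tunnel, had ratios above that of their parent by unequal amounts, and the differences were not tested. The lowest of the 4 copies, RPL23AP64, had -1.93 ± 1.09 in the fit of all 106. RPL23AP82, an unprocessed copy on chromosome 22 that is 90.5% identical to RPL23A, held 797 and 283 counts in the mimic flow-through, 317 and 247 in the mimic AGO2-IP, 80 in the control flow-through and 55 in the control AGO2-IP. Per 1000 counts on RPL23A it had 122 and 80.0 in the flow-through and 502 and 234 in the AGO2-IP. Its log2 fold change was -0.71 ± 0.74 and that of RPL23A -2.33 ± 0.66. RPL23AP7 and RPL23AP53 had -0.15 ± 0.77 and 0.14 ± 0.79, with fractions that overlapped. RPL23AP82 lies within an exon of a long noncoding RNA gene on its strand, none of its 150-base windows was distinct from all other transcripts, and its identifier and that of RPL32P3 have other versions in the files than in GENCODE 44, so the bounds used for counting them may differ. RPL32P3, 85.5% identical to RPL32, held 106 and 103 counts in the flow-through and 80 and 62 in the AGO2-IP, which gave -0.44 ± 0.79 where RPL32 had -2.85 ± 0.79. RPL4P6 held 3 and 5 counts in the flow-through and 28 and 21 in the AGO2-IP, the highest ratio of the 106 at 2.85 ± 1.04 on the log2 scale in the fit of all of them (edgeR adjusted p = 0.169), on 57 counts in all. MRTFA, whose exon it touches, had -0.91 ± 0.70.

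**Figure D4:**
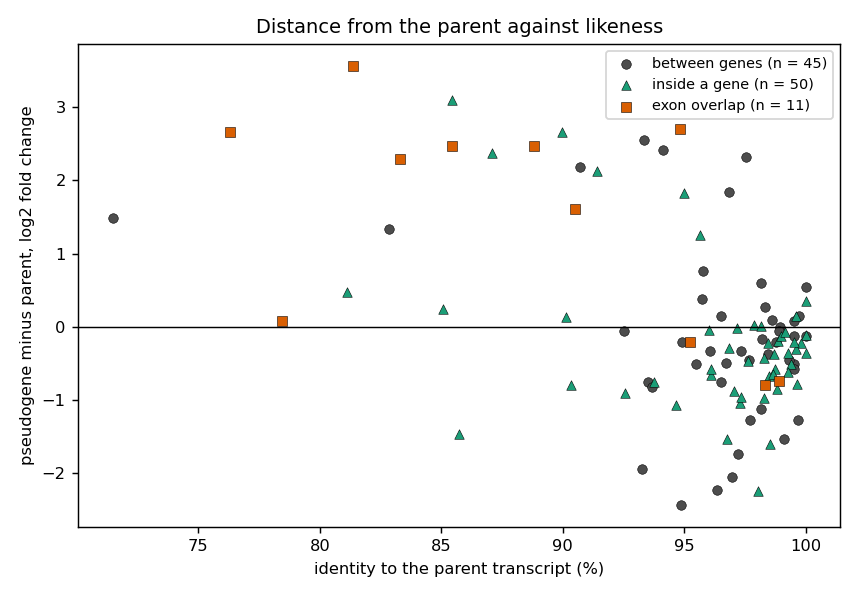
Difference between the log2 fold change of a pseudogene and that of its parent (vertical) against the identity of the pair in percent (horizontal), for the 106 pseudogenes, with the position of the pseudogene by symbol. The 14 copies under 90% identity have a median difference of 2.33 and the 92 others of -0.34.

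The spread among copies of the same parent was wide in some families and narrow in others, and no difference within a family was tested. The values of this paragraph without a standard error are from the fit of all 106. In the RPSA family, from the gene for a small subunit protein also known as the laminin receptor, the 6 copies ran from -4.31 for RPSAP19 to -1.20 for RPSAP9, and RPSA, the other parent gene called depleted, had -3.70 ± 0.64 (edgeR adjusted p = 0.0383). RPSAP19 held 30 and 117 counts in the flow-through and 2 and 4 in the AGO2-IP, whereas RPSAP9 held 54 and 38 and then 13 and 18, and the standard errors of their log2 fold changes were 1.18 and 0.91. RPSAP52, a transcribed copy in an intron of HMGA2 on the opposite strand, held 125 and 61 counts in the mimic flow-through and 39 and 18 in the mimic AGO2-IP. The control flow-through held 11 and the control AGO2-IP 19, an order that TMM scaling turned (1.93 and 1.73 CPM). Its log2 fold change was -1.55 ± 0.84 (not past the edgeR threshold), while HMGA2, a chromatin protein gene known as a target of let-7 microRNAs, had 3.51 ± 0.74 (edgeR adjusted p = 0.0543). The 8 RPL7A copies spread from -2.06 for RPL7AP70 to -0.05 for RPL7AP45 around -0.70 ± 0.56 for the parent, and RPL7AP6, the most counted of them, had -1.39 ± 0.75 on 387 and 504 flow-through counts and 195 and 128 AGO2-IP counts. The RPL13A family reached from -3.13 for RPL13AP25 to 0.42 for the diverged RPL13AP26, and RPL13AP20 had -2.52 ± 0.81. The 3 RPL10 copies and the 3 RPS18 copies all lay at -2.30 or lower.

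**Figure D5:**
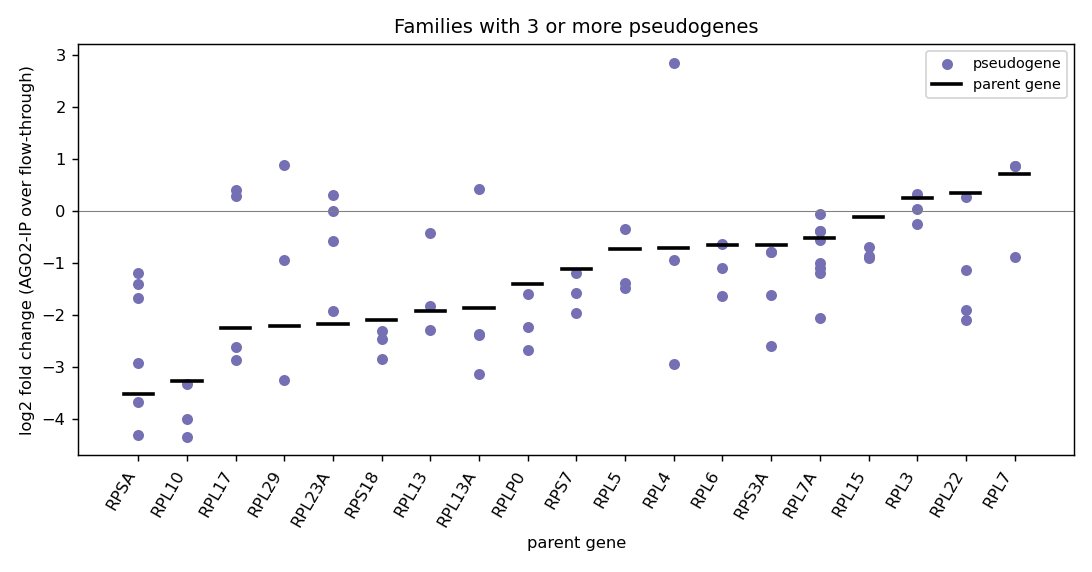
Log2 fold change of the pseudogenes (points) and of the parent gene (bar) in the 19 families with at least 3 pseudogenes, ordered by the parent, from the fit of genes with at least 50 counts. The 6 RPSA copies run from -4.31 to -1.20, while the 3 copies of RPL3 lie from -0.26 to 0.32.

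By position the medians differed little, apart from copies that share an exon base. The median log2 fold change was -1.57 for the 45 copies between genes, -1.32 for the 31 inside a gene on the opposite strand, -1.51 for the 19 inside a gene on the same strand and -0.26 for the 11 that share an exon base. For 37 copies inside a gene that was itself tested, the log2 fold change of the pseudogene had a rho of -0.23 with that of the host gene and of 0.50 with that of the parent gene. Large subunit copies had a median of -1.12 and small subunit copies of -1.83. The 13 copies with a transcribed biotype had a median of -0.57, against -1.49 for the 93 others. GC content and log2 fold change had a rho of -0.19 and exon length a rho of 0.18 (n = 106), and the lower GC copies were relatively higher in the first flow-through library (rho of -0.39).

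Levels per length were a small part of those of the parents. In the flow-through, the median level of a pseudogene was 0.616% of that of its parent, from 0.0219% for RPLP0P2 to 495% for RPL36AP37. The counts on some parents were low: RPS10, RPL36A and RPL17 held 172, 174 and 680 summed counts over the mimic libraries, and each shares exon bases with a read-through gene (RPS10-NUDT3, RPL36A-HNRNPH2 and RPL17-C18orf32). RPL10 shares 53.4% of its exon bases with other genes and held 83161 counts, and whether shared bases lowered any parent's counts was not tested. Comparisons of their copies with these parents are uncertain. Nearest to the floor of 50 counts lay RPLP0P2, RPL7AP62 and RPL34P18 inside with 50, 51 and 52 counts, and RPL35P5, RPL7P21 and RPS24P8 outside with 49 each.

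The parent genes and other lists give the setting. Of 47 parents 45 were tested, 2 were called depleted (0.413% of all tested genes) or 16 with the replicate block (5.08% of all tested genes) and 0 enriched, with a median log2 fold change of -1.63. Other TOP genes, a list of elongation and initiation factors, RNA-binding proteins, chaperones and the noncoding GAS5 and SNHG1, had a median of -0.63, and of 20 tested FAU was called depleted (-4.04 ± 0.77, edgeR adjusted p = 0.0490, or 0.0514 in the fit of genes with at least 50 counts) and HNRNPA1 enriched (4.04 ± 0.63, edgeR adjusted p = 0.0349). RPS21, a small subunit gene with no copy in the list, was called depleted at -4.17 (edgeR adjusted p = 0.0383). Processed pseudogenes of genes outside the RPL and RPS families had a median of 0.01 over 160 tested, with 1 called enriched (0.245% of all tested genes) and 0 depleted.

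The scrambled control gave the same order in the sum but too few counts for single copies. None of the 106 reached 200 counts in the control pair, and the median was 7 counts in the flow-through and 4 in the AGO2-IP. Scaled by TMM, the summed pseudogene counts had a log2 ratio of -1.52 between control AGO2-IP and control flow-through and the summed parent counts of -1.48, without a test, because there is 1 library each. By library size alone the pseudogene value was -0.63, where mitochondrial counts weigh on the flow-through. After TMM scaling the control AGO2-IP lay under the flow-through in 92 pseudogenes and above it in 13. These orders rest on few counts and depend on the scaling. RPL7AP6 held 28 AGO2-IP and 21 flow-through counts, which TMM scaling turned into 2.54 and 3.68 CPM. The same count over all genes was not made. Between the mimic and the control AGO2-IP the summed pseudogene counts differed by a log2 ratio of 0.00 (-0.01 and 0.02 for the single mimic libraries), and those of the parents by -0.00. Between the flow-through libraries the pseudogene ratio was 0.15, from -0.06 to 0.36 for the single mimic libraries. With 1 control library per fraction, these differences have no test.

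The mimic sequence is that of the mature miRNA, which RefSeq places on chromosome 19 of GRCh38.p14 (51692618 to 51692639, plus strand), shown here with its seed, bases 2 to 8, in capitals.
hsa-miR-99b-5p: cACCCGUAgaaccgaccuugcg
ACGGGT, the match on the sense strand to bases 2 to 7, was found in an annotated transcript of 8 of the 106 pseudogenes (7.55%), 14 of the 47 parents (29.8%) and 6127 of 60463 genes with a GENCODE 44 entry (10.1%). These shares are over transcripts of unlike length and number per gene. The 8 copies were RPLP0P6, RPLP0P9, RPLP0P2, RPL23AP53, RPL21P28, RPL12P14, RPL13P5 and RPL26P19, with log2 fold changes from -2.72 to 0.29 in the fit of all 106, and none passed the test. A match of letters is a description and not a binding site.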

How the data were processed

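After trimming with cutadapt 3.5, the authors placed read pairs on GRCh38 in 2 passes of STAR 2.7.11b and deposited STAR's counts of read pairs per gene, whole numbers without normalization. The release of their annotation is not given in the sources used here. Only pairs mapped to 1 place and 1 gene are counted, which lowers the counts of near-identical copies. Rows that name no gene (21.4% to 95.0% of read pairs) were left out. Unstranded counts were used. GENCODE 44 gave names, biotypes and transcripts for 60463 of 60708 identifiers. Identity to the parent was taken from blastn (BLAST+ 2.17.0).

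The mimic AGO2-IP and flow-through were compared with edgeR 4.0.16 (R 4.3.3, TMM, glmQLFTest) over genes with at least 200 summed counts, with Benjamini-Hochberg adjustment over all of them, and checked on simulated data. A second fit took at least 50. SE is the log2 fold change divided by the square root of F. Labels name the replicates of the mimic as biological but not their cultures. Same-numbered libraries deviated together (r = 0.324 over 13078 genes), and the numbers were treated as pairs because the labels give each biological replicate both fractions. Comparisons with the control, with 1 library each, have no test. Levels per length used the canonical transcript. Alternatives were other filters, size factors (DESeq2 1.42.0), PyDESeq2 0.5.4, strands, the block, GC correction by lowess, an adjusted p of 0.01 and each library left out. The pseudogenes held 8487 and 15690 flow-through counts and 3490 and 4370 AGO2-IP counts. Precision depends on these counts and on the variation between the 2 libraries of each mimic fraction. RPLP0, with 297044 summed counts, had a standard error of 0.64, and RPLP0P6, with 1885, had 0.71. Named pseudogenes were the 10 with most counts, up to 5 with the highest and 5 with the lowest ratio among those whose fractions do not overlap and whose higher fraction holds at least 200 counts, the extremes of the 3 largest families, the 3 nearest the floor of 50, RPSAP52 and RPL13AP5, with their parents and RPS21, and diverged or host genes were added with values seen. Some items are not reported here. Members, lists and this rule were chosen with earlier results of these data known.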

Additional observations from a re-analysis of the deposited data

Results flagged for a closer look

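The order of the fractions in the control pair was opposite to that in the mimic for 4 of the named pseudogenes, and for 8 of the 71 pseudogenes whose mimic fractions do not overlap. The order is that after TMM scaling, and by library size alone 15 of the 71 were opposite. Each rests on 1 control library per fraction, so the difference was not tested. Of the 106, both mimic AGO2-IP libraries lay under both flow-through libraries in 68 and above both in 3. Over all 16958 genes with at least 50 summed counts the shares were 31.0% and 23.4%. The share of all genes with an opposite order in the control was not computed, so these counts are not read as particular to the pseudogenes. RPL7P9 was higher in both mimic AGO2-IP libraries but had a control log2 ratio of -0.40, AGO2-IP over flow-through, on 14 and 10 counts, and by library size alone its control AGO2-IP was above the flow-through (1.73 and 1.29 CPM), as in the mimic. RPL7AP70, lower in both mimic AGO2-IP libraries, had 0.031 in the control. RPLP0P2 and RPL7AP62, also lower in the mimic AGO2-IP, both had 0.81 in the control, and RPLP0P2 held 2 control AGO2-IP counts and 0 control flow-through counts.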

How the results depend on the processing

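Of 481 values for 40 named genes under other settings, 370 kept their direction and side of the threshold, 84 passed it newly, 14 no longer passed it and 13 changed sign, in 5 genes. The causes were not tested. PyDESeq2 values without an adjusted p, as for RPL10P16, RPL29P4 and RPL7AP45, were counted among those that kept their side. With 1 library left out its fraction has 1 library, assumed to vary like the other fraction. The share of all genes called is not given for such fits. It is also not given for a summed count of at least 10, DESeq2's size factors, library size alone, column 3 or column 4. Under all these settings the numbers of genes called are therefore not read as specific to the pseudogenes or their parents. Pseudogenes called depleted (0 of 54) became 18 with the replicate block, 1 with GC removed, 21 with both, 11 with PyDESeq2 and 20 of 106 with the block over genes with at least 50 counts, an alternative chosen after seeing the data. They were 0 to 7 with 1 library left out (7 without the first mimic flow-through library), and 0 to 1 were called enriched. Parents called depleted (2) became 4 with a summed count of at least 10, 1 with DESeq2's size factors or library size alone, 0 with column 3, column 4 or an adjusted p of 0.01, 16 with the replicate block, 13 with GC removed, 30 with both, 20 with PyDESeq2, 10 with the block over at least 50 counts and 0 to 22 with 1 library left out (22 without the second mimic flow-through library), where 0 to 3 were called enriched. Leaving out 1 library moved the pseudogene median (-1.44) between -1.98 and -0.83, the parent median (-1.63) between -2.10 and -0.78, their median difference between -0.46 and -0.071 and the log2 difference of pseudogenes per parent count (-0.04) between -0.16 and 0.08. The latter was 0.13 with column 3 and 0.11 with column 4, and the median difference was -0.43 with column 4. Per placed read pair, the log2 difference of the pseudogene share was -0.92 (-1.38 over gene counts). By library size alone, the summed pseudogenes had -0.63 in the control pair and -0.13 between the AGO2-IP of mimic and control. RPSAP47 ran from -2.78 to 3.05 with 1 library left out, the latter without the first flow-through library, and was 0.083 with the block over at least 50 counts. RPL3P4 was -0.23 with column 4 and -0.57 to 0.66 with 1 library left out. RPL7AP45 was 0.13 with a summed count of at least 10. RPL3 was -0.046 with column 3, -0.021 with column 4 and -0.48 to 0.40 with 1 library left out. RPL7 was -0.043 with GC removed, -0.065 with the replicate block and GC removed, and -0.0012 to 1.41 with 1 library left out. Low AGO2-IP counts limit single pseudogenes.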

Other observations

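Pseudogenes of other TOP genes were counted on both sides of the comparison. A copy was taken when it summed to at least 50 over the mimic libraries, and some reached this only through 1 fraction. HNRNPA1P35 held 7 and 10 counts in the flow-through and 52 and 51 in the AGO2-IP, whereas FAUP1 held 22 and 116 and then 3 and 7. The ranges below therefore describe the counted copies and lend no support to a direction of a family. The 10 counted copies of HNRNPA1, an RNA-binding protein gene, had log2 fold changes from 0.30 to 4.17. HNRNPA1P7 held 138 and 85 counts in the mimic flow-through and 1709 and 1477 in the mimic AGO2-IP, and it rose by 4.17 on the log2 scale in the fit of genes with at least 50 counts (edgeR adjusted p = 0.0411). HNRNPA1 itself had 4.04 in the fit of genes with at least 200 counts, as the other parents given here. HNRNPA1P10 held 83 and 54 counts in the flow-through and 823 and 526 in the AGO2-IP, with a log2 fold change of 3.60 (edgeR adjusted p = 0.0639, or 0.0010 with the replicate block). The 6 copies of NPM1, which encodes a nucleolar chaperone and had 2.94, ran from 1.13 for NPM1P24 to 3.12 for NPM1P6 (edgeR adjusted p = 0.127), and none passed the test. The 9 copies of the elongation factor gene EEF1A1 ran from -2.27 for EEF1A1P47 to 0.99 for EEF1A1P5. EEF1A1P5 held 2805 and 1290 counts in the flow-through and 4577 and 2026 in the AGO2-IP, and EEF1A1 had 0.32. FAUP1 had -3.49 beside -4.04 for FAU, whereas FAUP4 had -0.15. Why copies of FAU differ was not tested.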
